A study of Ogataea haglerorum with 3 samples.

Results

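Ogataea haglerorum is a methylotrophic budding yeast, and this account covers its genes that lay far from chromosome ends and yet had little polyadenylated RNA. They were chosen from the authors' deposited table by 2 measures. The gene lay over 50000 bases from the nearer chromosome end, and the mean of its 3 TPM values was under 5 (TPM is a read count corrected for gene length and scaled to a fixed total per library). The rule took 385 of 5345 genes, called low internal genes below, and left 4568 other internal genes over 50000 bases from an end. A further 186 genes under 5 TPM lay nearer to an end. Since TPM chose the members, their levels are a description and carry no test.

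The study made 1 group of 3 libraries, labelled as replicates 1, 4 and 5, from haploid cells of the strain Phaff 81-453.3. After 16 h overnight, cultures were diluted into fresh YPD, a rich medium with glucose, and harvested in log phase at 30 °C (OD600 between 0.8 and 1.2). The labels do not tie each library to a culture of its own, so the spread between libraries may be technical. No second condition was analysed here, so no value below is a response to a treatment.

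A yeast genome is packed with genes, and neighbours often share the short stretch in which their promoters lie. In glucose-grown yeasts many genes are silent or nearly so because their products serve other states, such as growth on other carbon or nitrogen sources, mating, meiosis or stress. In methylotrophic yeasts the genes of methanol use are a known example, shut down by glucose. The locus tags used here carry 0 gene names in the RefSeq table of assembly ASM1920728v1, so none of the members can be assigned to such a role. In RNA from a whole culture, a low level in all cells and a high level in few cells cannot be told apart.

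Summed over genes, replicate 1 had 34047362 counts, replicate 4 had 44734719 and replicate 5 had 34526996. A gene without counts could still have up to 3, a floor of 0.0881 CPM in replicate 1, 0.0671 CPM in replicate 4 and 0.0869 CPM in replicate 5 (CPM is a count scaled to library size, without correction for length). This floor covers counting error only. The low internal genes together held 0.0701% ± 0.0051 of all TPM (SD, n = 3). Their median level was 1.39 ± 0.19 TPM, against 62.3 ± 0.91 TPM in the other internal genes. The median member had 45, 55 and 37 counts in replicates 1, 4 and 5, and the median of the other internal genes was 2639.5, 3393 and 2672 counts.

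Within the group, levels spread over the whole range below the threshold. There were 20 genes at or under 0.1 TPM, 4 of them without a count, and 69 more between 0.1 and 0.5 TPM. The 1 to 2 TPM range held 82 genes and the 4 to 5 TPM range 45. Under 5 TPM in every library were 345 genes, and the remaining 40 exceeded 5 TPM in at least 1 library. Applied to each library alone, the rule took 378, 377 and 390 genes in replicates 1, 4 and 5.

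Genes beside the threshold differed little from each other. Just inside it, KL911_003489 on chromosome 5 had 4.29, 5.32 and 5.35 TPM in replicates 1, 4 and 5, KL911_003754 on chromosome 6 averaged 4.98 TPM and KL911_005054 on chromosome 1 averaged 4.98 TPM. Just outside it, KL911_003648 averaged 5.02 TPM, KL911_003996 averaged 5.04 TPM and KL911_000522 averaged 5.07 TPM. Of the low genes, those just past the distance limit were KL911_003008, KL911_004089 and KL911_003009, 52186, 52460 and 53939 bases from an end, with means of 0.124, 1.37 and 0.433 TPM. Just short of it lay KL911_000531, KL911_001514 and KL911_003007, at 48604, 48367 and 48123 bases, with means of 4.74, 0.129 and 0.0572 TPM. On chromosome 7 the distance limit therefore falls within a row of adjacent low genes, KL911_003007 to KL911_003009.

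Low internal genes were found on all 7 chromosomes. They made up 11.5% of the internal genes of chromosome 7 (64 of 558) and 9.97% of those of chromosome 2 (86 of 863). On the other chromosomes the share ran between 6.17% on chromosome 4 and 7.46% on chromosome 3. The share did not fall steadily with distance from the end. It was 7.76% between 50 and 100 kb, 10.97% between 300 and 400 kb and 7.45% beyond 500 kb. The 93 members between 300 and 400 kb include 3 long rows of adjacent members described below. These are 10 genes on chromosome 2, 8 on chromosome 7 and 5 on chromosome 4, so a few places weigh on this share.

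Genes with no count at all were rare. Only 4 members had no count in any library, against 0 of the other internal genes and 12 of the 186 low genes nearer to an end. KL911_000149, a minus-strand gene of chromosome 3 at 652491 to 652703, is 213 bases long, and its flanking genes averaged 86.4 and 31.5 TPM. KL911_000088, a minus-strand gene of chromosome 3 at 743665 to 744258, lay between genes of 26.2 and 78.9 TPM. Neither thus had another low gene beside it. KL911_001633, a plus-strand gene of chromosome 4 at 322127 to 323057, closed a run of 3 low genes, and KL911_001400, a minus-strand gene of chromosome 5 at 1024329 to 1024657, stood beside another low gene. In at least 1 library 29 members had no count, 10 of them in exactly 2 libraries and 15 in exactly 1. Under 10 counts in at least 1 library were 95 members and 0 other internal genes, whose lowest count was 30. Other internal genes averaged at least 5 TPM by the rule, so none could lack counts in every library. The contrasts with them in this respect follow largely from the rule and are a description.

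The low internal genes were shorter than the other internal genes. Their median length was 1044 bases (quartiles 655 and 1539), against 1200 bases (786 and 1788) in the other internal genes. Of the members 20 (5.19%) were at most 300 bases long, against 80 (1.75%) of the other internal genes, and 8 (2.08%) exceeded 3000 bases, against 296 (6.48%). TPM divides by length and so is not independent of it. Chosen instead as the 385 internal genes with the lowest CPM, without correction for length, the group's median differed by -358.5 bases from the other internal genes in place of -156. At equal TPM a shorter gene has fewer counts, so the CPM choice itself favours short genes and is not independent of length either. Length was not ordered along the whole range of levels: the median was 1338 bases at 20 to 50 TPM and 1035 bases at 100 TPM or more.

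The extremes of length show how few reads some models rest on. The longest member, KL911_000061, a plus-strand gene of chromosome 3 at 790376 to 795862, spans 5487 bases and had 501, 599 and 406 counts in replicates 1, 4 and 5. KL911_004062 on chromosome 3, of 4992 bases, had 469, 614 and 506 counts, and KL911_003008 on chromosome 7, of 3912 bases, had 16, 26 and 12. The last of these therefore had few reads in every library despite its length. Besides KL911_000149, the shortest members were KL911_000001, of 210 bases with 8, 13 and 10 counts, and KL911_001923, of 213 bases with 27, 36 and 36 counts.

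A length that is not a multiple of 3 was more common among the members. An uninterrupted reading frame has a length divisible by 3, while a gene with an intron, or a partial or mispredicted model, need not. Such lengths were found in 98 low internal genes (25.5%), against 530 other internal genes (11.6%) and 30 of the 186 low genes nearer to an end (16.1%). At lengths over 300 and up to 600 bases the shares were 38.7% of 62 members and 15.3% of 563 other internal genes, and over 1200 and up to 3000 bases 20.5% of 151 members and 8.06% of 1986 other internal genes. Low genes nearer to an end had such lengths in 9 of 16 (56.2%) over 300 and up to 600 bases, 14 of 54 (25.9%) over 600 and up to 1200, where members had 29.2%, and 6 of 105 (5.71%) over 1200 and up to 3000. The excess of members over other internal genes was thus present from above 300 up to 3000 bases. The extremes held too few members to tell. At 300 bases or less such lengths were found in 1 of 20 members (5%) and 2 of 80 other internal genes (2.5%). Over 3000 bases they were found in 0 of 8 members and 23 of 296 other internal genes. Along the level the share with such lengths was 25.8% under 0.5 TPM, 16.1% at 5 to 10 TPM and 9.36% at 50 to 100 TPM. These members had a median level of 1.25 TPM and the members whose length is a multiple of 3 one of 1.37 TPM. No sequence was used, so introns and faulty models were not told apart.

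The RefSeq table lists 384 of the 385 members, 380 of them with the same length as in the authors' file. First or last on a piece of that assembly, with pieces read from where the start coordinate falls back in the table's order, were 7 members (1.82%), against 26 other internal genes (0.569%).

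**Figure D1:**
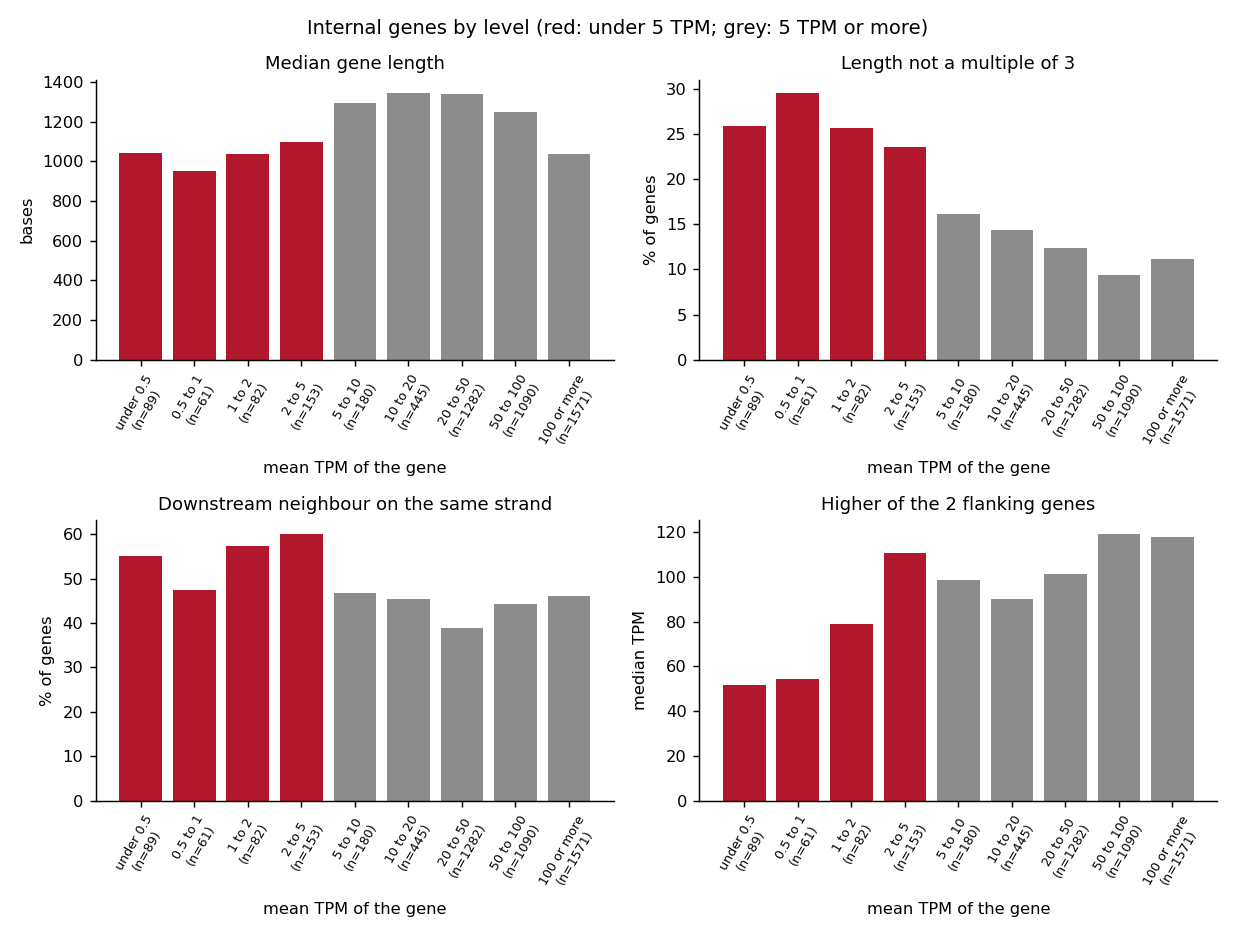
Internal genes over 50000 bases from a chromosome end, in 9 classes of mean TPM with the number of genes in each, as bars of median length in bases, percent of genes whose length is not a multiple of 3, percent whose downstream neighbour is on the same strand, and median TPM of the higher flanking gene. The 4 red classes under 5 TPM hold the low internal genes, with 23.5% to 29.5% of lengths not a multiple of 3, against 9.36% to 16.1% in the grey classes.

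Strand was balanced. On the plus strand were 188 members (48.8%) and 2303 other internal genes (50.4%). Orientation toward the neighbours was not alike on both sides. The upstream neighbour was on the same strand for 45.2% of members and 44.5% of other internal genes. The downstream neighbour was on the same strand for 217 members (56.4%), against 1991 other internal genes (43.6%). Members whose upstream neighbour is divergent and whose downstream neighbour is convergent were correspondingly fewer, 24.2%, against 32.5% of the other internal genes. By level, the downstream neighbour was on the same strand for 47.5% of members at 0.5 to 1 TPM and 55.1% to 60.1% in their other classes. Classes of 5 TPM or more had 39.0% to 46.7%, so the members at 0.5 to 1 TPM lay close to these. Of the low genes nearer to an end, 49.5% had a same-strand downstream neighbour. Members with same-strand neighbours on both sides had the highest median level of the 4 arrangements, 1.88 TPM, and the other 3 lay between 1.23 and 1.37 TPM.

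Upstream gaps, the stretches that hold the promoters, were close to those of other genes. The median gap from the start of a member to the next gene was 162 bases (quartiles 91 and 306), against 145 bases (82 and 299) in the other internal genes. Among genes whose upstream neighbour is on the same strand the medians were 171 bases in members and 136 bases in other internal genes, while at divergent neighbours they were 157 and 154 bases. Gaps over 1000 bases were found upstream of 9 members (2.34%) and 98 other internal genes (2.15%). Downstream gaps were longer in members, with a median of 105 bases, against 69 bases. By arrangement the difference was small, 143 bases in members and 138 bases in other internal genes before a same-strand neighbour, and 50 and 38 bases before a convergent one. No member overlapped a neighbouring gene, whereas 2 other internal genes did.

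The longest upstream gaps among members belonged to genes with few reads. KL911_000001, a minus-strand gene of chromosome 3 at 905117 to 905326, begins 9067 bases from its upstream neighbour and averaged 1.34 TPM. KL911_002105, a plus-strand gene of chromosome 6 at 365408 to 366252, has a gap of 2260 bases and had 0, 0 and 5 counts in replicates 1, 4 and 5. KL911_002304, a plus-strand gene of chromosome 2 at 868593 to 869645, has one of 1856 bases and had 52, 38 and 27 counts. The upstream neighbours of KL911_000001 and KL911_002304 are KL911_005380 and KL911_001129, so locus tag numbers do not run on across either gap. Whether these gaps span joins between pieces of the RefSeq assembly was not tested. Compared with low genes nearer to an end, whose median upstream gap was 243.5 bases, the members stood closer to their neighbours.

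Most low internal genes stood alone. Neither adjacent gene was a member for 258 of the 385 (67.0%), while 62 stood in 31 pairs, 24 in 8 runs of 3 and 41 in 7 longer runs. Neighbours under 5 TPM were still more common beside members than beside other internal genes, 21.2% against 6.65% of flanks. Lone members had a median of 1.74 TPM and members in a run 1.05 TPM. The shares with a length not a multiple of 3 were similar, 25.2% in lone members and 26.0% in runs. Within runs adjacent members were on the same strand in 47 of 81 pairs (58.0%), against 43.7% of 4258 adjacent pairs of other internal genes. Adjacent in RefSeq order as well were 77 of the 81 pairs.

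Flanking genes were somewhat lower beside members. Of 770 flanks of members 163 (21.2%) were themselves under 5 TPM, against 608 of 9136 flanks of other internal genes (6.65%). Leaving such flanks out on both sides, the median flank had 50.9 ± 0.45 TPM beside members and 63.2 ± 0.79 TPM beside other internal genes (SD, n = 3 libraries). The difference on the log2(TPM + 1) scale was -0.31 ± 0.01 and lay between -0.31 and -0.30 in the 3 libraries. With the same 3 libraries on both sides and genes that are not replicates, no test over samples was available for this difference. With all neighbours counted, those under 5 TPM included, the upstream neighbour had a median of 31.4 TPM beside members and 58.9 TPM beside other internal genes. The downstream neighbour, counted likewise, had 39.2 and 55.9 TPM.

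Low genes could adjoin very active ones. A flank over 100 TPM was present for 157 members (40.8%), against 53.8% of other internal genes, and both flanks exceeded 100 TPM for 24 members (6.23%), against 10.99%. KL911_003287, a minus-strand gene of chromosome 7 at 455147 to 455779, had 3.77, 3.52 and 5.02 TPM in replicates 1, 4 and 5 between genes of 3383 and 723 TPM. KL911_005346 on chromosome 4 at 900445 to 901326 had 1.28, 0.868 and 0.815 TPM between genes of 1067 and 338 TPM. KL911_003357 on chromosome 5 at 163422 to 164621 averaged 4.87 TPM between genes of 419 and 240 TPM. By the level of their lower flank these are the 3 lone members with the most active surroundings.

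The level of a member went with that of its higher flank. The median member had 2.13 TPM where a flank reached 100 TPM (157 genes), and 0.764 TPM where both flanks were under 5 TPM (36 genes). In the classes between, medians lay from 1.13 to 1.26 TPM. Spearman's rho between a member's level and its higher flank was 0.26 over 385 genes, and 0.09 over the 4568 other internal genes; these points share libraries and are not independent, and no p is given. The higher median beside a neighbour of 100 TPM or more was seen on each side and strand. For an upstream neighbour on the same strand it was 2.68 TPM over 35 members, against 1.33 TPM over the 139 with a lower neighbour there. At divergent upstream neighbours the medians were 2.21 TPM over 55 members and 1.12 TPM over 156, and at downstream same-strand neighbours 2.19 TPM over 54 and 1.37 TPM over 163. Convergent downstream neighbours gave 2.05 TPM over 37 members and 1.11 TPM over 131. Whether reads that run over from a neighbour add to these levels was not tested.

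**Figure D2:**
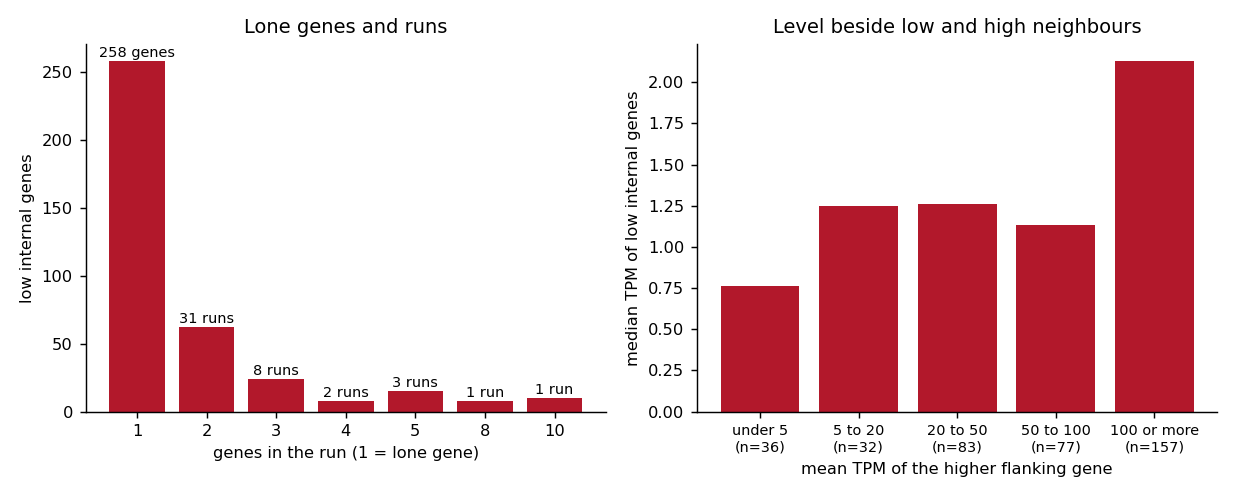
Left, low internal genes by the size of the run they stand in, with the number of genes or runs above each bar; 258 stood alone. Right, median TPM of low internal genes by the mean TPM of their higher flanking gene, with the number of genes in each class, from 0.764 TPM beside flanks under 5 TPM to 2.13 TPM beside a flank of 100 TPM or more.

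The densest stretch lay on chromosome 2. There 16 of the 20 genes between 1052808 and 1085120 were members, whereas the densest 20 genes of the other chromosomes held 3 to 8. Its core is the longest run, 10 genes from KL911_002411 to KL911_002420. The first genes of the run were barely detected: KL911_002411 had 5, 17 and 14 counts in replicates 1, 4 and 5, KL911_002412 had 9, 2 and 19, and KL911_002413 had 6, 4 and 4. The next pair was higher, with 67, 78 and 65 counts for KL911_002414 and 195, 240 and 184 for KL911_002415, which averaged 3.69 TPM, the highest of the run. KL911_002416 had 58, 71 and 28 counts, and KL911_002417 only 3, 1 and 4. KL911_002418 had 26 and 18 counts in replicates 1 and 4 and none in replicate 5. KL911_002419 had 69, 99 and 70 counts and KL911_002420 had 114, 190 and 84. Levels within the run thus spanned 0.0484 to 3.69 TPM, with lower and higher genes in short blocks.

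The run ends sharply on its right. KL911_002421, the next gene, averaged 70.0 TPM, and beyond it 4 more members followed, from KL911_002422 at 44, 77 and 41 counts to KL911_002425 at 73, 126 and 145. After these KL911_002426 averaged 66.4 TPM. On the left, KL911_002410 at 16.3 TPM bordered the run, and outside it the lone members KL911_002409 and KL911_002407, named after their values were seen, had 0.387 and 0.0348 TPM. Low and expressed genes alternated within single gene widths there.

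The run of 8 on chromosome 7, at 369392 to 379590, opened close to the threshold. KL911_003224 had 5.72, 5.03 and 4.13 TPM in replicates 1, 4 and 5. Its neighbour KL911_003225 had 0, 0 and 5 counts, KL911_003226 had 14, 21 and 21, and KL911_003227 had 14, 22 and 8. Levels stayed low through the rest of the run, with 24, 31 and 12 counts for KL911_003228, 30, 11 and 22 for KL911_003229, 2, 0 and 2 for KL911_003230 and 52, 44 and 42 for KL911_003231. The genes beside the run averaged 24.2 and 39.4 TPM.

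**Figure D3:**
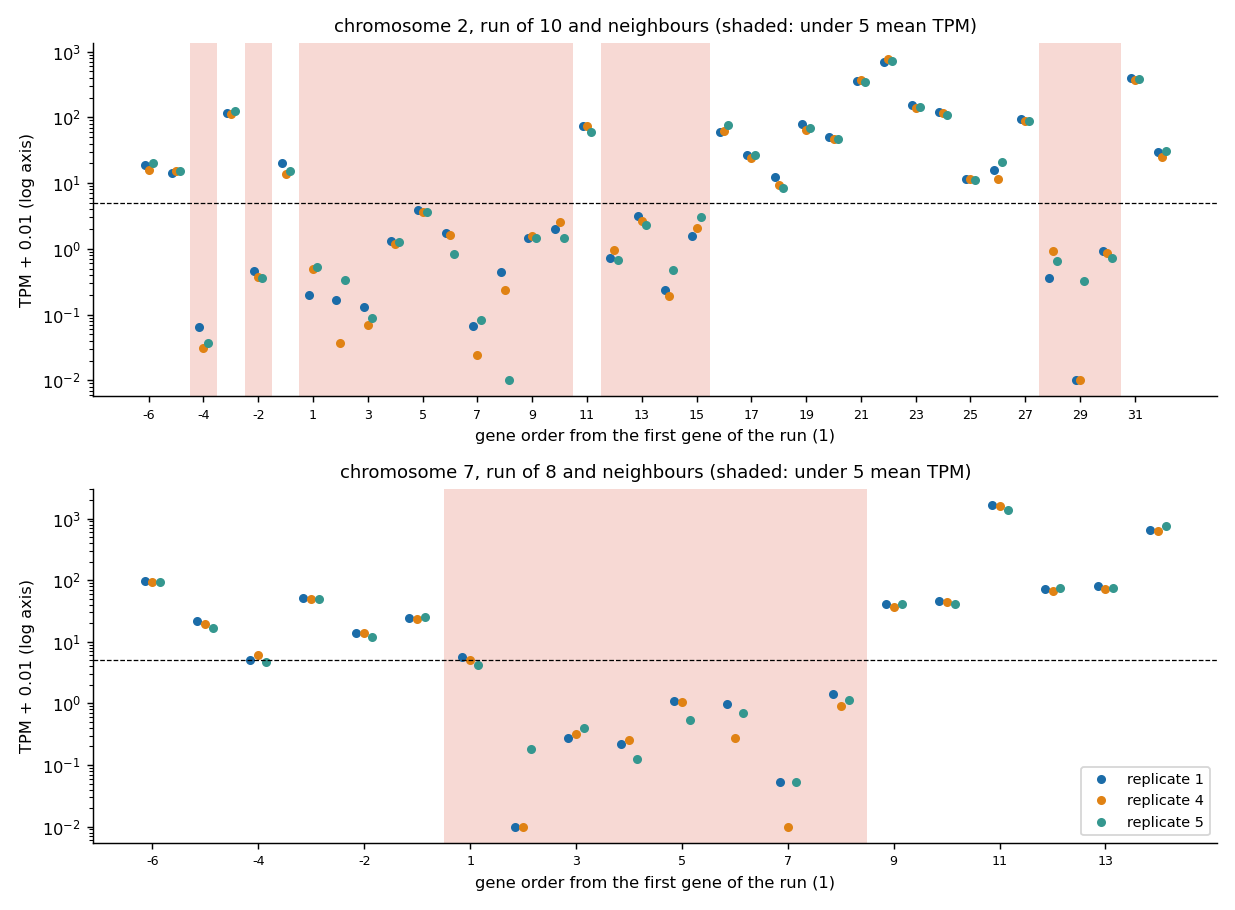
TPM in each library (points, log axis, 0.01 added) for genes in order along chromosome 2 and chromosome 7, numbered from the first gene of the run of 10 and of the run of 8; shading marks low internal genes and the dashed line 5 TPM. The 19 shaded genes of the upper panel lie between 0.0348 and 3.69 TPM, and its 19 other genes between 10.1 and 728 TPM.

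The remaining longer runs were flanked by expressed genes as well. On chromosome 7 these were 4 genes from KL911_003099, with 227, 227 and 112 counts, to KL911_003102, with 5, 12 and 8, then 5 genes from KL911_003132, with 40, 74 and 37 counts, to KL911_003136, with 102, 127 and 98, and 5 genes from KL911_004284, with 119, 172 and 70 counts, to KL911_004280, with 9, 13 and 3. The genes beside these 3 runs averaged between 18.6 and 242 TPM. All genes of each of the 6 runs of at least 4 described so far lie on 1 piece of the RefSeq assembly.

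The run of 5 on chromosome 4, at 921187 to 928754, differed from them in that its genes came from 4 pieces of the RefSeq assembly. Every gene of it was highest in replicate 4, a feature noticed after the values were seen, so its 3 inner genes are named too. KL911_005335 had 67, 98 and 37 counts in replicates 1, 4 and 5, KL911_005334 had 4, 85 and 33, and KL911_005407 had 0, 20 and 0. The last 2 were KL911_005405, with 4, 79 and 11 counts, and KL911_004883, with 309, 778 and 240. Summed over the run, scaled CPM was 11.2, 23.9 and 9.28. The flanking genes did not share this order: KL911_005336 averaged 82.0 TPM with 240, 229 and 230 scaled CPM, and KL911_004882 averaged 805 TPM and was highest in replicate 1. Reads that fit near-identical copies elsewhere could not be traced without sequence, so single-gene values here are uncertain.

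A like pattern was found in a run of 3 minus-strand genes of chromosome 6, at 970658 to 973717, singled out after its values were seen. KL911_003681 had 29, 75 and 19 counts in replicates 1, 4 and 5, KL911_003682 had 16, 161 and 15, and KL911_003683 had 10, 40 and 3. All 3 were highest in replicate 4 and were called as varying by the test described below. So was the next gene, KL911_003684, no member at 15.9 TPM, with 11.6, 30.3 and 10.6 scaled CPM. On the other side KL911_003680 had 222, 211 and 198 scaled CPM and was highest in replicate 1.

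**Figure D4:**
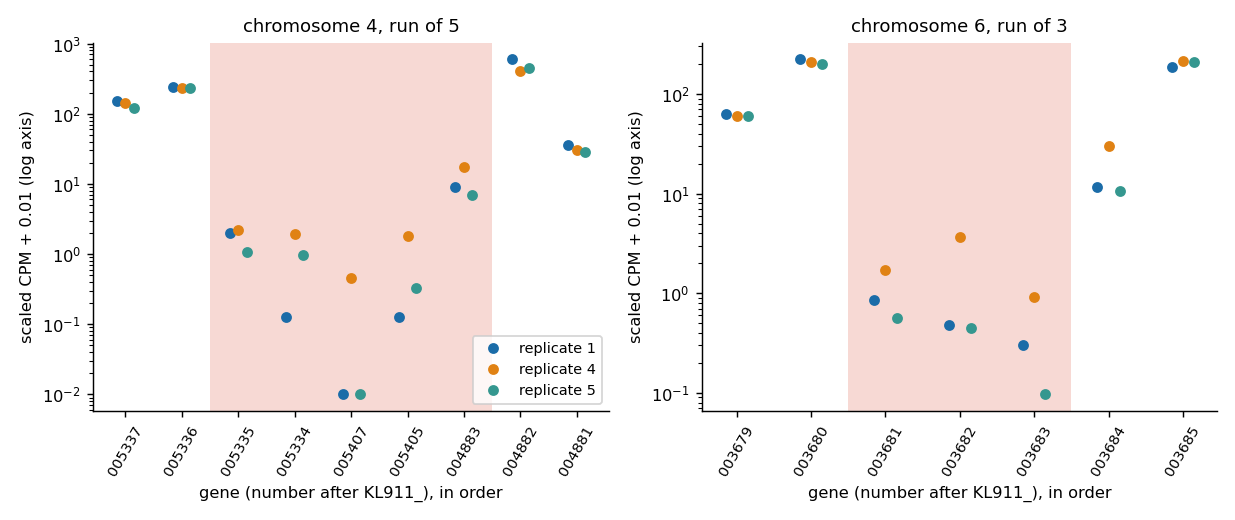
Scaled CPM in each library (points, log axis, 0.01 added) for the genes of the chromosome 4 run of 5, the chromosome 6 run of 3 (shaded) and 2 genes on either side of each. Replicate 4 is highest for all 8 shaded genes, with summed values of 11.2, 23.9 and 9.28 scaled CPM for replicates 1, 4 and 5 on chromosome 4 and 1.61, 6.22 and 1.07 on chromosome 6.

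Low internal genes were less steady over the 3 libraries than other internal genes. Counts of each gene were tested against Poisson counting error by chi-square with library sizes scaled by TMM (trimmed mean of M-values, edgeR), for genes with a mean count of at least 10. The 328 members that passed this filter are the better counted ones, and 57 were not tested. Beyond counting error at a Benjamini-Hochberg adjusted p under 0.05 were 183 of them (55.8%), against 80.5% of the other internal genes and 78.5% of all 5218 genes tested. The tested members had a median of 57.8 counts and the other internal genes 2908, and the part of depth in the smaller share was not tested. A gene was called as varying when its highest scaled CPM was also at least 2 times its lowest. This took 91 of 328 members (27.7%), against 33 of 4568 other internal genes (0.722%), with 3.20% of all tested genes called. Among the 116 tested low genes nearer to an end 35 were called (30.2%), and 56.9% were beyond counting error. Internal genes just above the threshold were called less often, 7 of 180 at 5 to 10 TPM (3.89%) and 11 of 445 at 10 to 20 TPM (2.47%). Of these 70.0% and 70.1% were beyond counting error. They were also better counted, with medians of 339.3 and 703 counts. Members at 2 to 5 TPM, with a median of 124.3 counts, were called in 21 of 153 (13.7%). The share called thus changed along the level and depth, and the part of depth was not tested. The count for members rests on all 3 libraries: it was 54 without replicate 1, 45 without replicate 4 and 45 without replicate 5. For other internal genes, with 33 calls in all 3 libraries, it was 25, 12 and 6 without replicates 1, 4 and 5. In proportion, their count fell more than that of members without replicate 4 or 5, and less without replicate 1. With a negative binomial of common dispersion in place of Poisson error, 35 of 328 members and 33 of 4568 other internal genes were called. At a mean count of at least 50, 30 of 186 members and 33 of 4568 other internal genes were called.

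Fewer reads make a given ratio easier to reach, so the spread was also taken after subtracting counting error. The squared coefficient of variation beyond counting error had a median of 0.0388 in members, or 19.7% of the level, and 0.00385 in other internal genes, or 6.20%. Without replicate 5 these medians were 0.0203 in members and 0.00164 in other internal genes. Without replicate 4 the members' median was 0.0227. It fell stepwise with level, from 0.0907 under 0.5 TPM through 0.0306 at 2 to 5 TPM and 0.0142 at 5 to 10 TPM to 0.00287 at 100 TPM or more. edgeR's common dispersion over the same genes gave a coefficient of variation of 30.5% for members, 10.1% for other internal genes and 28.2% for low genes nearer to an end. By mean count, 11 of 88 members (12.5%) and 5 of 116 other internal genes (4.31%) were called at 100 to 300, with medians of 0.0304 and 0.0166. At 30 to 100 the shares were alike, 38 of 137 members (27.7%) and 2 of 7 other internal genes (28.6%), with medians of 0.0344 and 0.0450, although 7 genes give little precision. At 300 counts or more the call was made for 1 of 18 members and 26 of 4445 other internal genes (0.585%).

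**Figure D5:**
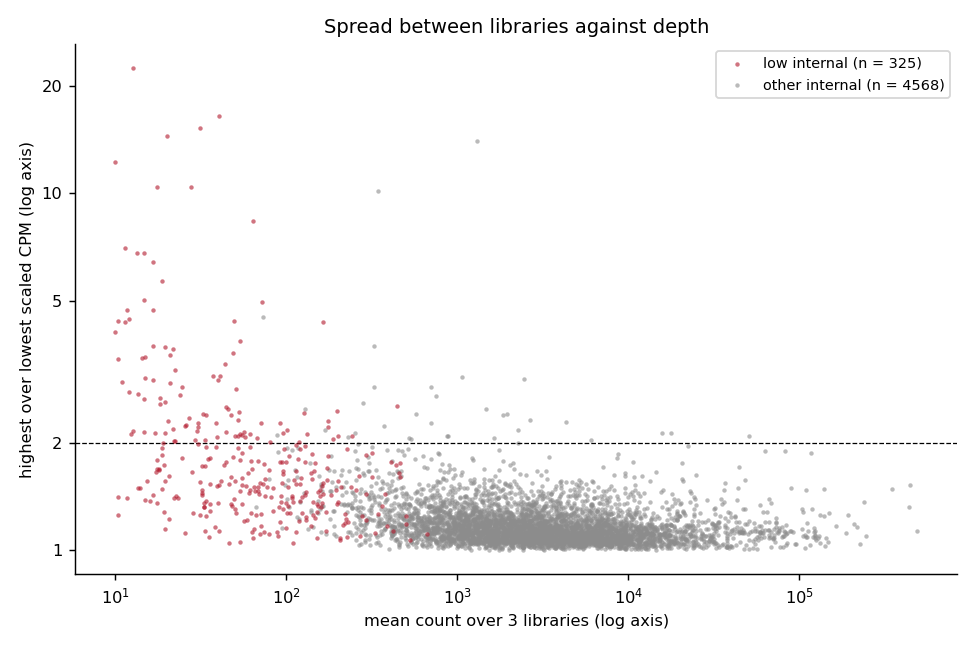
Ratio of highest to lowest scaled CPM over the 3 libraries against mean count, both on log axes, for 325 low internal genes and 4568 other internal genes with a mean count of at least 10; 3 members without a count in a library have no ratio and are not drawn. The dashed line marks a ratio of 2; most points above it are low internal genes with under 100 counts.

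The libraries did not share the extremes evenly. Of the 328 tested members replicate 5 was lowest for 158 and highest for 70. Among the 91 called, replicate 5 was lowest for 51 and replicate 4 highest for 42. Called genes outside the members leaned the same way. Replicate 5 was lowest for 26 and replicate 4 highest for 23 of the 33 called other internal genes. For the 35 called low genes nearer to an end these numbers were 18 and 17. Among other internal genes replicate 5 was lowest for 1670 and highest for 1790 of 4568. The share of TPM held by the members was 0.0724%, 0.0737% and 0.0643% in replicates 1, 4 and 5. Adjacent members that were both tested had the same highest library in 22 of 47 pairs (46.8%), against 38.7% of pairs of other internal genes. The same lowest library was found in 18 of the 47 (38.3%), against 38.9%. Called shares were 23.1% in lone members, 31.2% of 48 tested in runs of 2, 52.6% of 19 tested in runs of 3 and 40.6% of 32 tested in runs of at least 4. The median excess had another order, 0.0383 in lone members, 0.0260 in runs of 2, 0.125 in runs of 3 and 0.0760 in runs of at least 4.

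Single members moved far. KL911_005394, a minus-strand gene of chromosome 7 at 500054 to 500460, had 30, 37 and 0 counts in replicates 1, 4 and 5, at least 10.1-fold between highest and lowest. KL911_002418 had 26, 18 and 0, at least 8.75-fold, and KL911_003092 on chromosome 7 at 170528 to 171373 had 0, 17 and 16, at least 5.28-fold, each against a floor of 3 counts in the library without reads. In these 3 genes the library at 0 was not always the same. KL911_002799 on chromosome 1 at 726621 to 726965 had 1, 29 and 8 counts, a 22.4-fold ratio with an exact 95% counting interval of 3.71 to 914.6. KL911_005334 and KL911_005405, of the chromosome 4 run, differed 16.4-fold and 15.3-fold. The lowest spreads among members of at least 100 mean counts were these: KL911_003136 had 102, 127 and 98 counts with a coefficient of variation of 2.63% between libraries, KL911_002415 one of 3.54%, and KL911_004062, with 469, 614 and 506 counts, one of 3.60%. All 3 lay below counting error, with an excess of -0.00853, -0.00369 and -0.00067. Since they were picked as the lowest, their values do not measure how steady these genes are.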

How the data were processed

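Polyadenylated RNA was measured in 3 libraries of 1 group. Raw counts per gene are the authors' deposited values, made with featureCounts 2.0.1 over gene features (paired-end option, strand setting 1), per the file headers, although the labels give single-end reads. HISAT2 2.2.1, SAMtools, deepTools and HTSeq are named in the submitters' processing notes without a role. The TPM values are the authors' own in the deposited table. Coordinates are those of the authors' files, whose genome build is not given in the sources used here. The end of the last annotated gene stood for the right end of a chromosome.

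The members, lists and tests were chosen with earlier results of these data known. Gaps, runs and flanks were computed from gene positions with Python 3.11.15, pandas 2.3.3 and numpy 2.4.6. Counts were scaled by TMM in edgeR 4.0.16 (R 4.3.3) and compared between libraries by chi-square against Poisson error (scipy 1.17.1), with Benjamini-Hochberg adjustment over genes with a mean count of at least 10. A call needed an adjusted p under 0.05 and a ratio of at least 2. The procedure was tested on simulated data. The p-values measure only the spread between these libraries. The median of the excess squared coefficient of variation lies below its mean, so edgeR's common dispersion is given too. DESeq2 1.42.0 size factors were an alternative. Named genes were members without counts, those nearest the thresholds, the 3 longest and shortest, the 3 with the longest upstream gap, members of the 2 longest runs, first and last genes of other runs of at least 4, the 3 lone members with the highest lower flank, the 6 called members of highest ratio and the 3 steadiest of at least 100 counts. Gene lists by function were not used, since no names were paired with the locus tags. The number of unused per-sample columns was 0.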

Additional observations from a re-analysis of the deposited data

How the results depend on the processing

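The differences in length, upstream gap, flank level, lengths not a multiple of 3 and same-strand downstream neighbours kept their sign under every alternative run. The number of members, the share alone, the varying count and the excess carry no sign, so only their values are given. No paired analysis was possible because all 3 libraries form 1 group. Under a threshold of 2 TPM there were 232 low internal genes, of which 65.9% stood alone, and the differences from other internal genes were -177 bases in length, 10.5 bases in upstream gap and -0.52 in log2 flank level, with an excess squared coefficient of variation of 0.0681. Under 10 TPM, 63.4% stood alone, and the values were -81 bases, -0.21 and 0.0254. Beyond 100000 bases from an end, 66.2% stood alone, with -184 bases and -0.33. Among lengths that are multiples of 3 the length difference was -147 bases. By lowest CPM, a choice that itself favours short genes, it was -358.5 bases. Beside same-strand upstream neighbours the gap difference was 35 bases. With all flanks counted the flank difference was -0.73. The excess was 0.0539 with at least 1 count in all, 0.0306 at a mean count of at least 50 and 0.0927 by edgeR's common dispersion. Varying members numbered 30 of 186 tested at a mean count of at least 50, against 33 of 4568 other internal genes. Under a negative binomial with common dispersion they were 35 of 328, against 33 of 4568. At a ratio of at least 1.5 they were 154 of 328, against 207 of 4568.

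Without replicate 1, 54 of 331 tested members varied, against 25 of 4566 other internal genes. It was 45 of 321 against 12 of 4562 without replicate 4, and 45 of 323 against 6 of 4577 without replicate 5. Leaving out each replicate gave an excess of 0.0203 to 0.0284, length differences of -165 to -156 bases, flank differences of -0.33 to -0.28, and 65.4% to 67.5% of members alone. The difference in lengths not a multiple of 3 was 13.9 percentage points, with 13.6 to 14.002 when a replicate was left out, 13.2 at over 600 and up to 3000 bases, 13.6 in lone genes, 11.1 under 10 TPM and 14.7 under 2 TPM. The difference in same-strand downstream neighbours was 12.8 points, with 12.5 to 13.3 when a replicate was left out, 11.8 in lone genes, 9.81 under 10 TPM and 9.76 under 2 TPM. These 2 differences, the lowest CPM choice and edgeR's dispersion were added after seeing the data. The cause of each shift was not tested. Depth limits single genes: 57 members had a mean count under 10.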
